A study of Homo sapiens with 4 samples.

Results

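CDC42 is a small GTPase, and the CDC42EP genes encode its BORG effectors. Rows of the deposited expression tables were taken where the gene symbol was CDC42 or CDC42EP1 to CDC42EP5. Of the 6 symbols searched, 5 had a row among 20226 listed genes, and CDC42EP3 is not analysed here. The family was proposed with the contrast below already known, CDC42EP5 having been among its largest differences, so the levels of the 5 genes in that contrast are a description and carry no test.

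CDC42 switches between a GDP-bound and a GTP-bound state, set by exchange factors (GEFs), GTPase-activating proteins (GAPs) and dissociation inhibitors (GDIs). In its GTP-bound form it binds effectors, many of them through a short CRIB motif (Cdc42/Rac interactive binding), and so acts on the actin cytoskeleton and cell polarity. BORG proteins carry a CRIB motif and also bind septins, the filament-forming GTPases, whose assembly they help organise.

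RNA was sequenced from Huh7 cells, an established human hepatocellular carcinoma line, in 2 groups of 2 libraries each. The shNUP210 cells carried a short hairpin RNA against NUP210, a membrane glycoprotein of the nuclear pore, and the shCon cells are named as hairpin controls by their titles and as wild type by their genotype label. All 4 libraries are labelled untreated. Which hairpin sequences were used, and whether the cells were a pool or a clone, the sources used here do not say. The labels do not state whether replicates were independent cultures, and the p-values below therefore reflect library-to-library spread that could be purely technical.

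Levels are TPM, an expression unit that adjusts for the length of the transcript and the size of the library and keeps no read depth. NUP210 itself was at 10.1 and 9.85 TPM after knockdown and at 32.8 and 27.3 TPM in the controls (limma log2 difference -1.50, SE 0.24, adjusted p = 0.0432). That call was lost in 8 of 15 alternative settings, among them every one that left out a library, with an adjusted p of up to 0.167. Between 13675 and 14564 genes reached 1 TPM in a library. The 6 hepatocyte markers summed to 10687 and 10937 TPM in shNUP210 and to 11538 and 10946 TPM in shCon, with AFP the highest in each library. Within that sum SERPINA1 was lower in shNUP210 (1617 and 1602 against 2716 and 2635 TPM) and TTR higher (396.9 and 438.3 against 288.4 and 275.0 TPM). The 4 fibroblast markers analysed (COL1A1, COL3A1, PDGFRB, LUM) summed to 36.2 and 19.2 TPM in shNUP210 against 10.7 and 15.2 TPM in shCon. CD68 and CD14, markers of macrophages, summed to 21.3 and 6.30 against 35.2 and 27.4 TPM. PDGFRB and CD14 each overlapped between the groups. Of the fixed marker list, 4 of 5 fibroblast, 2 of 4 leukocyte and 0 of 4 endothelial markers had a row. None of the markers with a row was at 0 in every library, and those without a row are not analysed here. Both small marker sums differed between the groups in the same libraries as the results below, and their part in those results was not tested.

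The shared feature of the effectors is visible in the coding stretch of the CRIB motif, shown here because the family shares its BORG form and because it sets CDC42EP5 slightly apart. Stretches were read from GENCODE release 29 transcripts (GRCh38), 5′ to 3′ on the coding strand, with capitals marking the codons of the 8 fixed residues (isoleucine, serine, proline, phenylalanine, histidine, histidine, valine or isoleucine, glycine).
CDC42EP1: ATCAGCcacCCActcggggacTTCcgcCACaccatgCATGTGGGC
CDC42EP2: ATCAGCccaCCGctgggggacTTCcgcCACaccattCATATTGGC
CDC42EP4: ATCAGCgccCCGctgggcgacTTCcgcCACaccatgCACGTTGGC
CDC42EP5: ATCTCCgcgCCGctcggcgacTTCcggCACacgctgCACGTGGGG

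The stretches lie at chr22:37566461-37566505 (plus strand), chr11:65320986-65321030 (plus), chr17:73286378-73286422 (minus) and chr19:54465437-54465481 (minus), all within coding exons. The pattern was written from the BORG form of the CRIB motif, including its spacing, so that other CRIB forms can be missed. It occurred in 5 of 19699 protein-coding genes searched (0.0254%), which are the 5 CDC42EP genes. Nothing is read from that match, because the pattern was taken from the family. CDC42, the GTPase bound through the motif, does not hold it. Of the 45 bases, 29 were the same in all 4 stretches. CDC42EP5 shared 36 bases with CDC42EP4, 33 with CDC42EP1 and 31 with CDC42EP2, while the other pairs shared 38 or 39.

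The 5 genes sit on different chromosomes. On GRCh38, CDC42 (ENSG00000070831) spans chromosome 1, 22052627 to 22092946, on the plus strand. CDC42EP1 (ENSG00000128283) spans chromosome 22, 37560447 to 37569405, plus strand, and CDC42EP2 (ENSG00000149798) chromosome 11, 65314818 to 65322429, plus strand. CDC42EP4 (ENSG00000179604) spans chromosome 17, 73283624 to 73312175, minus strand, and CDC42EP5 (ENSG00000167617) chromosome 19, 54465026 to 54473264, minus strand. CDC42EP5 is the shortest of the 4 effectors measured, with 444 coding bases, stop codon left out, against 630 in CDC42EP2, 1068 in CDC42EP4 and 1173 in CDC42EP1. It is also the richest in G and C, at 78.6% of coding bases against 63.3 to 67.1% in the other effectors and 44.0% in CDC42.

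CDC42, the GTPase itself, was moderately abundant in both groups. Its level was 63.1 and 57.1 TPM in shNUP210 and 38.4 and 51.4 TPM in the shCon libraries. Both knockdown libraries lay above both controls, but the nearest pair, shNUP210 replicate 2 and shCon replicate 2, was 1.11-fold apart while the control libraries were 1.34-fold apart. The means were 60.1 ± 4.2 and 44.9 ± 9.2 TPM (SD, n = 2 each), a log2(TPM + 1) difference of 0.43. All tested genes, those with at least 5 TPM in 2 or more libraries, had a median difference of 0.23 in TPM as deposited. After trimmed-mean, median-ratio or upper-quartile scaling or quantile normalization the CDC42 difference was between 0.13 and 0.24 and its groups overlapped. GENCODE release 29 places 2055 exon bases of a read-through gene, AL031281.2, on those of CDC42, and that gene is not analysed here. The one processed pseudogene of CDC42 analysed, CDC42P1, was at 2.04 TPM in shNUP210 replicate 2 and listed at 0 in the other 3 libraries.

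CDC42EP5 had the widest difference of the family. Its level was 20.7 and 13.6 TPM in shNUP210 and 185.4 and 164.1 TPM in the shCon libraries. Both knockdown libraries were low and both controls high, with no overlap, and across the 4 pairings of a knockdown with a control library the ratio ranged from 0.0736 to 0.126. The means were 17.2 ± 5.0 and 174.8 ± 15.1 TPM (SD, n = 2 each), 10.2-fold lower in shNUP210. The log2(TPM + 1) difference was -3.30, the 14th lowest of 10140 tested genes. These are values of the kind that brought the gene into the family's choice. Bulk RNA cannot tell fewer cells that express the gene from less RNA per cell.

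CDC42EP1, the most abundant effector in 3 of the 4 libraries, differed little. It was at 161.3 and 141.7 TPM in shNUP210 and at 186.8 and 161.0 TPM in shCon, so that the groups met at 161 TPM. The means were 151.5 ± 13.8 and 173.9 ± 18.2 TPM, a ratio of 0.871 and a log2 difference of -0.20. Under the other 4 scalings the difference was -0.30 to -0.49 and the groups were separate. Of these, trimmed-mean, median-ratio and upper-quartile scaling shift all genes together or nearly so, while quantile normalization does not. Against the median of all tested genes CDC42EP1 stood at -0.43 in TPM as deposited and at -0.31 to -0.45 under the other 4 scalings.

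CDC42EP4 was lower in shNUP210 in all 4 pairings of libraries. It was at 21.8 and 25.4 TPM in shNUP210 and at 36.2 and 32.8 TPM in shCon. The groups did not overlap, and the means of 23.6 ± 2.5 and 34.5 ± 2.4 TPM gave a ratio of 0.684 and a log2 difference of -0.53. The sign was negative under every scaling tried, between -0.53 and -0.82.

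CDC42EP2 was the lowest of the effectors in every library. It was at 4.30 and 5.79 TPM in shNUP210 and at 4.94 and 4.12 TPM in shCon, with the groups overlapping. Its log2 difference of 0.12 was smaller than the combined within-group SD (0.29, the root of the summed variances of the groups). The difference was negative, -0.08 to -0.20, under the other 4 scalings. It reached 5 TPM in 1 library only and so did not pass the filter of the gene-wide test. Its exons share 1886 bases with AP000944.2 in GENCODE release 29, a read-through gene that is not analysed here.

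**Figure D1:**
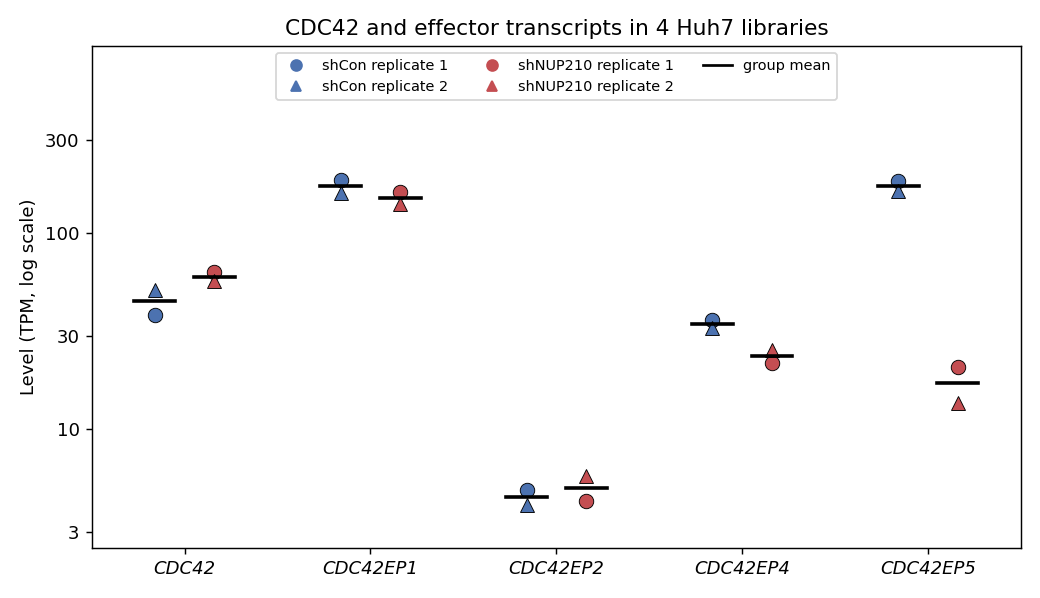
Level of each gene in TPM (log axis) in shCon (blue) and shNUP210 (red) libraries, with circles for replicate 1, triangles for replicate 2 and bars for the group mean. CDC42EP5 lies at 164.1 and 185.4 TPM in shCon and at 13.6 and 20.7 TPM in shNUP210, while the CDC42EP1 groups meet at 161 TPM.

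Among the 4 genes that passed the filter, both knockdown libraries lay below both controls for CDC42EP4 and CDC42EP5, an order shown by 14.3% of tested genes, and above them for CDC42, an order shown by 42.9%. Nothing is read from these counts, because the family was chosen on this contrast. The placing of the genes by level changed with it. In the shCon libraries CDC42EP1 and CDC42EP5 shared the top, with means that differed by less than their spread and with each first in 1 library. CDC42, CDC42EP4 and CDC42EP2 followed, although CDC42 and CDC42EP4 were only 38.4 and 36.2 TPM in shCon replicate 1. In both shNUP210 libraries the order was CDC42EP1, CDC42, CDC42EP4, CDC42EP5 and CDC42EP2. CDC42EP4 and CDC42EP5 stood at 21.8 and 20.7 TPM in shNUP210 replicate 1, and their group means differed by about their combined spread.

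The make-up of the effector transcripts does not depend on a scale factor between libraries, because it is a ratio within each library. CDC42EP5 held 44.9 and 45.3% of the summed TPM of the 4 effectors in shCon, and 9.96 and 7.31% in shNUP210. CDC42EP1 held 45.2 and 44.5% in shCon and 77.5 and 76.0% in shNUP210. The 2 effectors thus took near-equal shares in both controls, and CDC42EP1 took most of the sum in both knockdown libraries. CDC42EP4 held 8.76 and 9.06% in shCon and 10.5 and 13.6% in shNUP210, and CDC42EP2 1.20 and 1.14% against 2.07 and 3.10%. The CDC42EP5 level was 0.993 and 1.02 times that of CDC42EP1 in the control libraries and 0.128 and 0.0963 times in the knockdown libraries.

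**Figure D2:**
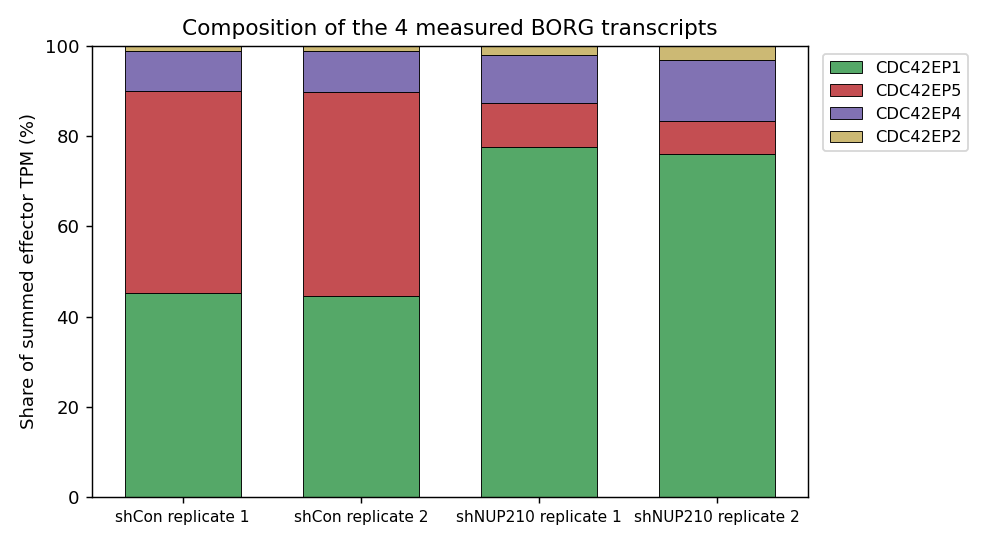
Share of each effector in the summed TPM of CDC42EP1, CDC42EP2, CDC42EP4 and CDC42EP5 (percent, stacked to 100 in each library). The CDC42EP5 segment is 44.9 and 45.3% in the shCon libraries and 9.96 and 7.31% in the shNUP210 libraries.

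The effectors summed to 208.1 and 186.5 TPM in shNUP210 and to 413.3 and 362.1 TPM in shCon. Without CDC42EP5 the sums were 187.4 and 172.9 against 227.9 and 198.0 TPM, a ratio of 0.846. Set against the GTPase, the controls had 10.8 and 7.04 TPM of effector transcript per TPM of CDC42, and the knockdown libraries 3.30 and 3.27. Levels here are of RNA and per transcript length, and protein was not measured.

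Base composition and length differ across the family. The mean GC content of the listed transcripts was 71.2% for CDC42EP5, above that of 99.7% of tested genes, and their mean length of 576 bases was above that of 4.42%. CDC42EP1 and CDC42EP4 were at 63.2 and 62.2% GC, and CDC42 at 43.5%. A smooth trend of the log2 difference on GC and length, fitted over the tested genes, was -0.20 at the position of CDC42EP5, -0.06 at CDC42EP1, 0.01 at CDC42EP4 and 0.37 at CDC42. With that trend taken out, an alternative added after the data were seen, the differences were -2.86, 0.09, -0.31 and 0.29, on a scale where the median of all tested genes stayed at 0.23. CDC42EP5 remained low, and CDC42EP1, though positive on that scale, stayed below that median.

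**Figure D3:**
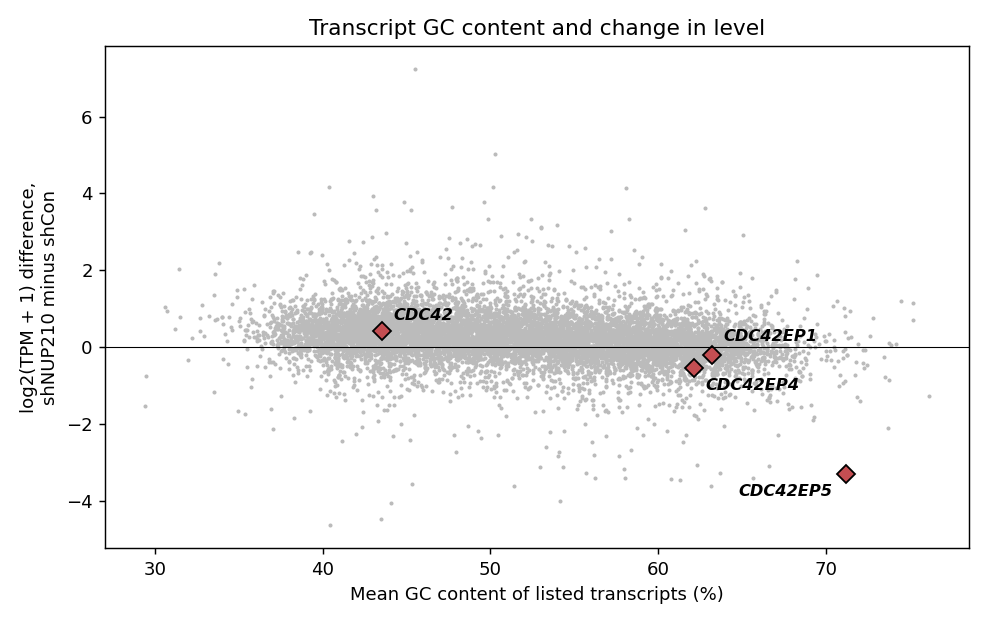
Difference in log2(TPM + 1), shNUP210 minus shCon, against the mean GC content of each gene's listed transcripts (percent), with 1 grey point per tested gene and the 4 tested family members as red diamonds. CDC42EP5 lies at 71.2% GC and -3.30, below the grey points at similar GC content.

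A gene near CDC42EP5 was not lower with it. LENG8, on the opposite strand with its end 2989 bases from CDC42EP5, was at 76.7 and 64.0 TPM in shNUP210 and at 47.7 and 33.1 TPM in shCon (limma log2 difference 0.80, SE 0.23, adjusted p = 0.117). LENG9 lies nearer and is not analysed here. The neighbour of CDC42EP1, LGALS2, was listed at 0 and at 8.93 TPM in shNUP210 and was at 14.0 and 22.9 TPM in shCon (adjusted p = 0.209 by limma), and POLA2, near CDC42EP2, had overlapping groups. In GENCODE release 29 no other gene has exons overlapping those of CDC42EP5, CDC42EP1 or CDC42EP4.

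The 5 tested genes whose centred log2(TPM + 1) profiles over the 4 libraries lay nearest to that of CDC42EP5 were PARVB, GATD1-DT, CES1, TIMM10B and NPTX2, at Euclidean distances of 0.48 to 0.65. Their levels were far lower. PARVB, encoding the focal adhesion adaptor beta-parvin, was at 0.10 and 0.11 TPM in shNUP210 and at 9.03 and 10.2 TPM in shCon. CES1, a liver carboxylesterase, was at 1.37 and 1.50 against 25.1 and 15.7 TPM, and NPTX2, a secreted pentraxin, at 1.11 and 0.72 against 12.2 and 10.3 TPM. GATD1-DT was at 1.57 and 1.68 against 25.6 and 29.1 TPM. TIMM10B was listed at 0 in both shNUP210 libraries and was at 13.1 and 6.75 TPM in shCon. All 5 genes reached the 5 TPM filter only through the shCon libraries, so that their being tested rested on the group where they were high. The likeness rests on 4 libraries in 2 groups and describes little more than a shared size of difference in log2(TPM + 1). On that scale the 5 genes differed by -3.43 to -2.68, beside -3.30 for CDC42EP5. The added 1 shrinks differences at such low levels, and the ratios in TPM were not shared.

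None of the CDC42 pathway genes in the 4 lists below passed the test. In the same limma fit, 290 of 10140 genes had an adjusted p under 0.05 (2.86%), 181 higher (1.79%) and 109 lower (1.07%) in shNUP210. The split turned with the scaling, to 76 higher and 252 lower after trimmed-mean, 77 and 250 after median-ratio and 66 and 279 after upper-quartile scaling, and 87 and 118 after quantile normalization. Of 76 listed genes in 4 lists (septins, other CDC42 effectors, exchange factors, and GAPs with GDIs) 44 were tested and 0 were called in either direction. At an unadjusted p under 0.05 there were 5 higher and 0 lower, against 18.4 and 5.95% of all tested genes in these directions and 24.3% in either. CDC42BPA is among the 5 and reached the 5 TPM filter only through the shNUP210 libraries, as did 501 of all 10140 tested genes. The smallest adjusted p among the 44 was 0.0951. The lists do not contain the family itself. Relative to all tested genes, the medians of the septins and the other effectors stayed between -0.07 and 0.05 under all 5 scalings.

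Septins, the partners that BORG proteins bind, had 8 tested genes with a median log2 difference of 0.28, beside 0.23 for all tested genes. SEPTIN9, the most abundant, was at 204.1 and 205.0 TPM in shNUP210 and at 251.7 and 232.2 TPM in shCon (limma log2 difference -0.24, SE 0.10, adjusted p = 0.225). SEPTIN2 was at 73.7 and 92.4 against 67.2 and 54.7 TPM (0.44, SE 0.19, adjusted p = 0.224). SEPTIN11 was at 47.9 and 30.5 against 53.8 and 33.6 TPM, with overlapping groups. SEPTIN10, named after its values were seen, was at 28.7 and 42.8 against 13.9 and 17.9 TPM, 2.25 times the control mean (adjusted p = 0.0951 by limma). SEPTIN9 lay below and SEPTIN10 above in every pairing, and both signs held under all 5 scalings.

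The other effectors of CDC42 had 19 tested genes and a median difference of 0.24. The abundant ones were nearly level in TPM as deposited. PAK4, a p21-activated kinase, was at 111.2 ± 6.7 and 114.6 ± 2.7 TPM, MAP3K11, a mixed-lineage kinase with a CRIB motif, at 108.7 ± 3.9 and 112.0 ± 13.5 TPM, and TRIP10, an F-BAR membrane adaptor, at 83.9 ± 7.5 and 79.3 ± 6.2 TPM in shNUP210 and shCon (SD, n = 2). Their groups overlapped, with limma adjusted p of 0.77 for TRIP10 to 0.90 for MAP3K11. Under the other 4 scalings the log2 differences were -0.34 to -0.17 for PAK4, -0.33 to -0.18 for MAP3K11 and -0.21 to -0.08 for TRIP10. CDC42BPB and CDC42BPA, the MRCK kinases, were named after their values were seen. CDC42BPB was at 33.3 and 42.0 against 23.8 and 18.8 TPM (adjusted p = 0.122) and CDC42BPA at 6.97 and 5.60 against 2.26 and 1.79 TPM (adjusted p = 0.171), both from limma. The knockdown libraries of both kinases lay above both controls without passing the test. CDC42BPA reached the 5 TPM filter only through the shNUP210 libraries, so that its being tested rested on the group where it was high, and the list median without it was 0.22.

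Exchange factors, which load CDC42 with GTP, had the highest median of the 4 lists, 0.75, on only 7 tested genes. In TPM as deposited all 7 differences were above 0 and 6 of them above the median of all genes. Above 0 were also 6783 of the 9825 genes with a mean of at least 5 TPM over the 4 libraries, which include these 7. SPATA13, named after its values were seen, turned negative under the other 4 scalings. DOCK9, another member named after its values were seen, reached the filter only through the shNUP210 libraries (7.07 and 7.20 against 2.09 and 3.99 TPM). Its difference could therefore only be above 0, and the median of the remaining 6 was 0.68. Of all 10140 tested genes, 501 likewise reached the filter only through the shNUP210 libraries, and the median of the others was 0.20. ITSN1, encoding intersectin, was at 49.2 and 47.7 against 20.9 and 32.5 TPM (limma log2 difference 0.87, SE 0.25, adjusted p = 0.120). ARHGEF7, encoding beta-PIX, was at 22.9 and 17.0 against 13.9 and 7.65 TPM (0.87, SE 0.36, adjusted p = 0.210), and DOCK6 at 11.1 and 14.8 against 7.12 and 9.11 TPM. None of these 3 genes was called. Both knockdown libraries lay above both controls in 5 of the 7 exchange factors, against 42.9% of all tested genes. DOCK9 is among the 5, and its order was fixed by how it reached the filter. The same order was seen in 10 of 19 other effectors, 4 of 8 septins and 6 of 10 GAPs and GDIs. CDC42BPA is among the 10 and ARHGAP27 among the 6, and their order was fixed in the same way. The 42.9% also holds the 501 genes that reached the filter only through the shNUP210 libraries. Relative to all genes the median of the exchange factors, DOCK9 included, lay 0.51 higher, and 0.44 to 0.55 higher under the other scalings.

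GAPs and GDIs, which return such GTPases to the inactive state or hold them there, had 10 tested genes and a median of 0.40, which was 0.40 also without ARHGAP27, a member that reached the filter only through the shNUP210 libraries. ARHGDIA, a GDI and the most abundant of them, was level in TPM as deposited at 467.6 ± 46.5 and 451.8 ± 49.6 TPM. Its log2 difference was -0.25 after upper-quartile scaling, -0.20 after trimmed-mean scaling and 0.03 after quantile normalization. ARHGAP5 was at 53.5 and 49.6 against 38.1 and 36.2 TPM (limma adjusted p = 0.168) and BCR at 46.7 and 60.2 against 39.4 and 37.9 TPM (adjusted p = 0.223). Both were 1.38 to 1.39 times the control mean.

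**Figure D4:**
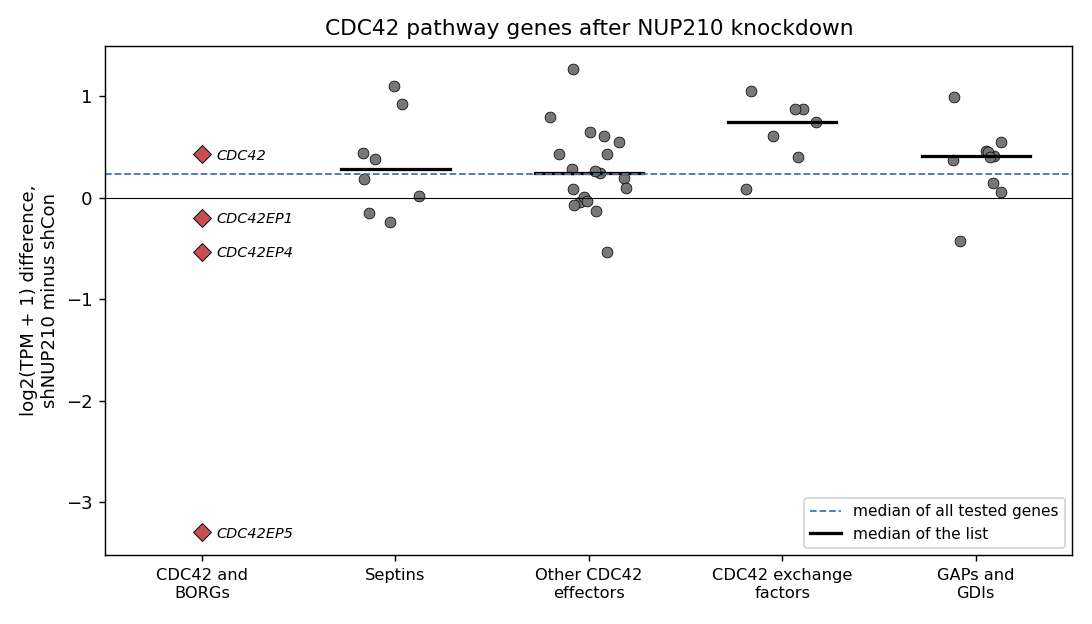
Difference in log2(TPM + 1), shNUP210 minus shCon, for the 4 tested family members (red diamonds) and for the tested genes of 4 pathway lists (grey points, sideways position arbitrary), with black bars for list medians and a dashed line for the median of all tested genes, 0.23. The listed genes lie between -0.53 and 1.27, and CDC42EP5 lies at -3.30.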

How the data were processed

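The 4 deposited tables hold TPM made by the authors, 1 library per table. The hg38 build and the tools Trimmomatic, STAR, RSEM and DESeq are named, without version or role, per the submitters' processing notes. Whether counting used strand is not stated in the sources. Columns total 999993 to 999998, and read depth is not kept in TPM. List genes were matched by symbol through a table of current names.

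Differences are of mean log2(TPM + 1). The gene-wide test was limma 3.58.1 (R 4.3.3) with eBayes and a mean-variance trend, two-sided, Benjamini-Hochberg adjusted over genes reaching 5 TPM in 2 or more libraries, and called at an adjusted p under 0.05. A run on simulated data required only that inserted differences be recovered in size, and it set no limit on false calls. The simulation held no shift shared by all genes. A log2(TPM + 1) scale understates changes of low genes. With 2 libraries a group no exact permutation p could be small, so none was used. Members, lists and the filter were chosen with earlier results of these data known.

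Named genes are all members, NUP210, the called or otherwise the 3 most abundant genes of each list, the 5 nearest profiles, genes overlapping or within 10 kb of a member, and listed pseudogenes of CDC42. SEPTIN10, CDC42BPA, CDC42BPB, SPATA13, DOCK9 and ARHGAP27 fall outside this rule and were named after their values were seen. Cell markers are given from a fixed list. One further planned list is not reported here. Positions, transcript GC and coding sequences came from GENCODE release 29 (GRCh38), which gave length and GC for 19643 of 20226 genes. Alternatives were other pseudocounts, filters, scalings, variance settings, a replicate block and each library left out.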

Additional observations from a re-analysis of the deposited data

How the results depend on the processing

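CDC42EP5 stayed lower in shNUP210 in every setting, from -3.58 to -3.01 with a library left out and -2.86 after removal of the length and GC trend, and its share of effector TPM differed by -37.8 to -35.1 percentage points, shNUP210 minus shCon, with a library left out. CDC42EP4 was at -0.77 after trimmed-mean and median-ratio scaling, -0.82 after upper-quartile scaling, -0.78 after quantile normalization and -0.31 after trend removal, and at -0.64 to -0.43 with a library left out. CDC42EP1 was at -0.44 after trimmed-mean and median-ratio scaling and -0.49 after upper-quartile scaling, and at -0.30 to -0.09 with a library left out. After trend removal it was at 0.093. All values after trend removal are on a scale where the median of all tested genes stayed at 0.23. CDC42EP2 was at -0.20 after quantile normalization and from -0.06 to 0.30 with a library left out, and CDC42 from 0.22 to 0.63. Against the median of all tested genes CDC42EP4 stood at -0.77 in TPM as deposited and at -0.77 to -0.79 under the other 4 scalings. The cause of the remaining shifts was not tested.

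Genes called numbered 290, against 14 unfiltered, 57 where genes needed 1 TPM in 2 libraries, 0 without the variance trend (2290 at an unadjusted p under 0.05) and 4 to 27 with a library left out (27 and 24 without shNUP210 replicate 1 or 2, 11 and 4 without shCon replicate 1 or 2). The replicate block gave 63. Replicate numbers are shared only as labels, and deviations of same-numbered libraries correlated at 0.0231 over 10140 genes. The NUP210 difference of -1.50 lost its call unfiltered (adjusted p = 0.131), at 1 TPM in 2 libraries (0.0781), with no variance trend (0.0991) or a replicate block (-1.50, 0.0820), and with any library left out (-1.62 to -1.37). The pathway lists had 0 called genes in all settings run, which says little for settings where few or 0 genes were called at all.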
